A study of Homo sapiens with 8 samples.

Results

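Messenger RNA of 39 DNA repair genes was followed in 2 human myeloma cell lines with and without added CTBP2. The genes were taken by symbol from a list of base excision, mismatch, homologous recombination, Fanconi and checkpoint genes, and all 39 were found among the 25906 rows of the expression table. Each had at least 1 FPKM (fragments scaled by transcript length and library depth) in at least 2 of the 8 libraries, so all 39 were kept. MM.1S and NCI-H929 are established lines of multiple myeloma, a cancer of plasma cells. Both were transduced by lentivirus for 72 hours with an empty vector (EV) or with a vector that overexpresses CTBP2, a corepressor recruited by DNA-bound repressors. The 4 groups were MM.1S with empty vector, MM.1S with CTBP2, NCI-H929 with empty vector and NCI-H929 with CTBP2, each with 2 libraries described as biological duplicates. Every group, controls included, had gone through lentiviral transduction.

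Base excision repair removes single damaged bases: a glycosylase cuts the base out, APEX1 nicks the strand, and XRCC1 and PARP1 organise the filling and sealing of the gap. Mismatch repair corrects copying errors behind the replication fork, while homologous recombination copies a broken stretch from the sister chromatid and the Fanconi pathway unhooks crosslinks between strands. ATM and ATR are the kinases that report breaks and stalled forks, through CHEK2 and CHEK1. Many genes of recombination, crosslink repair and the ATR branch are transcribed mostly in cells that are about to replicate their DNA. RBBP8 encodes CtIP, which starts the resection of broken ends and takes its name from its binding to CtBP proteins.

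The vector labels held in all 8 libraries, with CTBP2 (Entrez 1488) at 0.148 to 0.213 FPKM with empty vector and at 1621 to 5884 FPKM with the CTBP2 vector. The line labels did not hold in 2 of them. The library labelled MM.1S CTBP2 replicate 2 held only 0.0582 FPKM of CCND2, a cyclin high in MM.1S, and 22.2 FPKM of FGFR3, a receptor high in NCI-H929. Its counterpart labelled NCI-H929 CTBP2 replicate 2 held 60.7 FPKM of CCND2 and 0.0399 FPKM of FGFR3. Labels were kept in the fit of all 8 libraries. Results are also given without these 2 libraries (6 left), and with the line of all 8 read from these genes (CCND2 or FGFR3 above 10 FPKM). The 6 libraries leave a single CTBP2 library in each line. They are also part of the 8, so calls shared by these fits are not independent of each other. In what follows the CCND2-high CTBP2 libraries are MM.1S CTBP2 replicate 1 and the one labelled NCI-H929 CTBP2 replicate 2, in that order. The FGFR3-high CTBP2 libraries are NCI-H929 CTBP2 replicate 1 and the one labelled MM.1S CTBP2 replicate 2. Since these 2 libraries only change places, reading the line from marker genes leaves the fitted change over both lines as it is and alters its error. Depth was estimated at 16000000 to 21200000 fragments per library. The 8 plasma cell markers sought were present, at a summed 2375 to 3469 FPKM with empty vector and 1699.8 to 2518 FPKM with CTBP2. They did not move together. IRF4 was at 131.9 to 160.3 FPKM with empty vector and 59.7 to 69.6 FPKM with CTBP2. MZB1 was at 845 to 1074 and 523 to 719 FPKM, also without overlap. CD38 had a higher range with CTBP2, at 12.6 to 27.7 and 20.5 to 54.9 FPKM, and the ranges of the other markers overlapped too. Of 3 T cell markers, CD3D and CD2 stayed under 1 FPKM and CD3E was at 0.527 to 3.65 FPKM with empty vector and 2.44 to 53.1 FPKM with CTBP2. The 4 epithelial markers summed to 0.952 to 18.5 and 2.17 to 27.9 FPKM, mostly KRT18, and the 3 monocyte and 3 fibroblast markers to less than 1 FPKM in every library. The part of such markers in the results was not tested, and in bulk libraries fewer cells of a kind and less RNA per cell cannot be told apart.

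The 39 DNA repair genes were mostly lower with CTBP2. They were chosen with earlier results of these data known, and the part of that choice in the counts below was not tested. In the fit of all 8 libraries as labelled, 4 of the 39 fell and none rose: NTHL1, UNG, FANCE and CHEK1 (limma, Benjamini-Hochberg adjusted p under 0.05 over the 12583 genes with at least 1 FPKM in 2 libraries, of which 3.34% were called in either direction, 1.81% were called lower and 1.53% higher). Without the 2 libraries that go against their line labels, 21 fell and 2 rose, against 13% and 11.5% of all genes tested. With the line read from marker genes, 26 fell and 2 rose, NEIL1 and ATM, against 16.7% and 17.4% of all genes tested. The 23 genes called in 6 libraries were all among those 28. The median change of the 39 genes was -0.59 on the log2(FPKM + 1) scale, against 0.04 over all genes tested, and 34 of the 39 values were negative. In 10 of the 39 the highest CTBP2 library was below the lowest empty vector library, which was so for 7.45% of all genes tested, and none had all 4 above, against 7.21%. These were NTHL1, UNG, MSH6, BRCA2, XRCC2, FANCA, FANCC, FANCE, ATR and CHEK1. BRCA2 reached 1 FPKM only with empty vector and was kept through that group alone. Among the other 38 genes 25 fell with marker-read lines, 21 in 6 libraries and 4 as labelled, and 9 had vectors that did not overlap.

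The count as labelled changed with single libraries, as did the count over all genes. It was 0 with any 1 empty vector library or either replicate 1 CTBP2 library left out. In those fits 1 to 6 of all 12583 genes were called. It was 2 when the library labelled MM.1S CTBP2 replicate 2 was dropped and 7 when its NCI-H929 counterpart was. Of all genes, 198 and 723 were then called. With marker-read lines, 18 to 27 genes fell and 1 or 2 rose when each library was left out in turn. In those fits 19.5% to 35.3% of all genes were called in either direction. Equal totals of FPKM without immunoglobulin genes and CTBP2 shifted the all-gene median from 0.04 to 0.27. On that scale the median of the 39 genes was -0.33. With marker-read lines 15 then fell and 2 rose, and as labelled 3 fell. The marker-read calls lost on it were those of MUTYH, NEIL3, XRCC1, BRCA2, PALB2, RBBP8, FANCA, FANCC, FANCD2, ATR and TOPBP1. That scale gave 866 of all genes called lower and 3827 higher with marker-read lines, in place of 2101 and 2186.

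**Figure D1:**
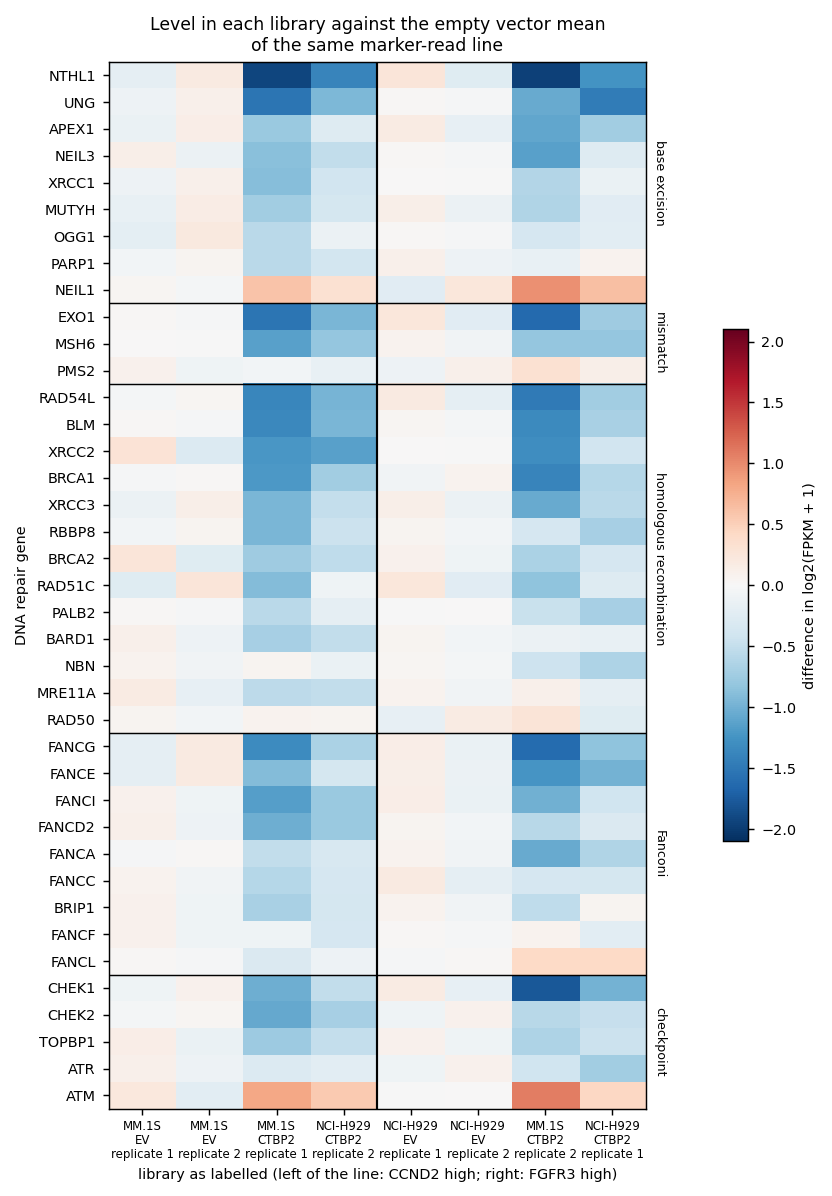
Heat map of 39 DNA repair genes (rows, grouped by role) in the 8 libraries (columns), coloured by the difference in log2(FPKM + 1) from the empty vector mean (2 libraries) in the same marker-read line. The 4 CTBP2 columns are blue for most genes and red for NEIL1 and ATM.

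**Figure D2:**
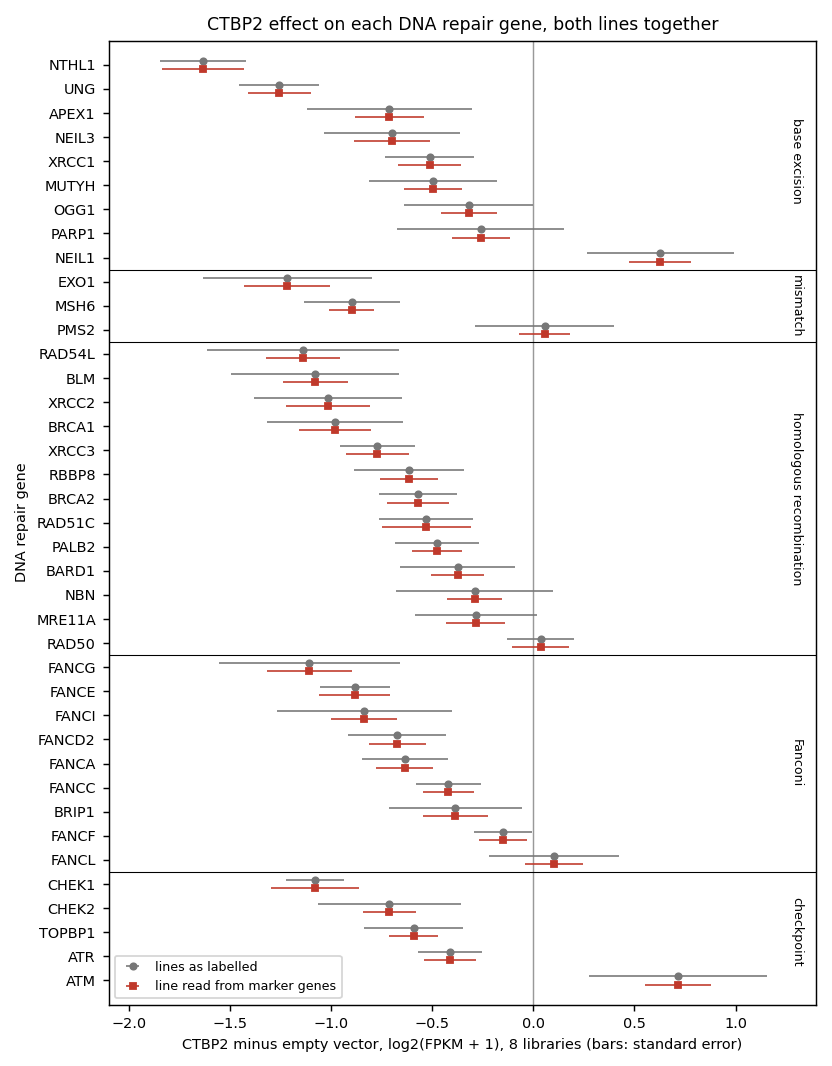
Fitted CTBP2 minus empty vector difference in log2(FPKM + 1) for each gene (points) with its standard error (bars), over 8 libraries, with lines as labelled (grey circles) and with lines read from CCND2 and FGFR3 (red squares). Values run from -1.63 for NTHL1 to 0.72 for ATM, and the points of both fits coincide while their errors differ.

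Among 9 base excision genes the glycosylases NTHL1 and UNG fell in all 3 fits. NTHL1 (Entrez 4913) removes oxidised pyrimidines. With empty vector NTHL1 measured 20.9 and 27.7 FPKM in MM.1S and 39.6 and 27.5 FPKM in NCI-H929. NTHL1 measured 5.60 and 8.61 FPKM in the CCND2-high CTBP2 libraries and 13.2 and 7.73 FPKM in the FGFR3-high ones. Every CTBP2 library lay below every empty vector library, at 28.9 ± 7.77 FPKM with empty vector (SD, n = 4) and 8.78 ± 3.20 FPKM with CTBP2 (SD, n = 4). Its log2 fold change amounted to -1.63 (SE 0.21, limma adjusted p = 0.0323). In 6 libraries the value was -1.59 (limma adjusted p = 0.00608). UNG (Entrez 7374) removes uracil from DNA. With empty vector UNG measured 48.9 and 56.4 FPKM in MM.1S and 45.6 and 43.7 FPKM in NCI-H929. UNG measured 17.4 and 26.8 FPKM in the CCND2-high CTBP2 libraries and 15.4 and 20.8 FPKM in the FGFR3-high ones. These groups were also apart, and UNG's fitted change on the log2 scale was -1.26 (SE 0.20, limma adjusted p = 0.0328).

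The 250 bases before the RefSeq start of both genes are shown because they hold the CACGTG E-box, the sequence bound by MYC and related factors. The windows, in GRCh38.p14, are chr16:2047835-2048084 (minus strand) for NTHL1 and chr12:109097922-109098171 (plus strand) for UNG, the latter being the one of 2 UNG windows that holds the listed motifs. The window of APEX1, at chr14:20454976-20455225 (plus strand), holds the most E-boxes of the 37 genes with a window. Capitals mark CACGTG, the NF-Y motif CCAAT, the E2F motif TTTGCCGC and its 3 variants TTTGGCGC, TTTCGCGC and TTTCCCGC, and the late cell cycle motif TTTGAA, each on either strand.
NTHL1: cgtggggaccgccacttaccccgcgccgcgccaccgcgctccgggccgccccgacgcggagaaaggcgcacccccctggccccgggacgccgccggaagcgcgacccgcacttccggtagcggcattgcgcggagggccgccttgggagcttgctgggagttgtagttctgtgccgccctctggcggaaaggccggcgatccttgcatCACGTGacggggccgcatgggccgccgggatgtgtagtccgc
UNG: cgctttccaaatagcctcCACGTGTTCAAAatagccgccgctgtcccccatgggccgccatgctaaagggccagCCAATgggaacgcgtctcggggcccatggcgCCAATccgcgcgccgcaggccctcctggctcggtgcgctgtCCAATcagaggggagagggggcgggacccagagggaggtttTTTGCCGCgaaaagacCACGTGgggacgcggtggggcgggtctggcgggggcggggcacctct
APEX1: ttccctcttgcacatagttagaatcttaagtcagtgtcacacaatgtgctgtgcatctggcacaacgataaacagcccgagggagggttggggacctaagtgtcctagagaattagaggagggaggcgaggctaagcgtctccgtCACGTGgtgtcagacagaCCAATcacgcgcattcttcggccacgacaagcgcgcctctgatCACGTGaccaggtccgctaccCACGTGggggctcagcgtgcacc
In NTHL1 the E-box starts 42 bases before the gene's start, and in UNG E-boxes start 232 and 47 bases before it, the first of them running straight into a TTTGAA match on the other strand. APEX1 has them at 105, 44 and 23 bases. These matches describe the letters only.

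APEX1 (Entrez 328), the endonuclease that acts after the glycosylases, differed more between lines than between vectors. With empty vector APEX1 measured 44.9 and 54.4 FPKM in MM.1S and 170.2 and 133 FPKM in NCI-H929. APEX1 measured 28.5 and 40.9 FPKM in the CCND2-high CTBP2 libraries and 90.9 and 70.3 FPKM in the FGFR3-high ones. Within each line the CTBP2 libraries were below the empty vector libraries, but the FGFR3-high CTBP2 values exceeded the empty vector values of MM.1S. Its log2 fold change of -0.71 passed with marker-read lines and in 6 libraries but not as labelled (adjusted p = 0.354 as labelled, 0.0161 in 6 libraries and 0.0144 with marker-read lines, limma). NEIL3, a glycosylase of single-stranded and crosslinked DNA, and XRCC1, the scaffold of single-strand break repair, had log2 fold changes of -0.70 (SE 0.34) and -0.51 (SE 0.22). NEIL3 was at 2.80 to 5.65 FPKM with empty vector and 0.747 to 3.29 FPKM with CTBP2, and XRCC1 at 19.2 to 29.1 and 12.2 to 20.3 FPKM. Neither passed as labelled (limma adjusted p = 0.276 and 0.223). Both fell with marker-read lines (limma adjusted p = 0.021 and 0.0331), as did MUTYH, which removes adenine opposite oxidised guanine (-0.50, limma adjusted p = 0.0281). In 6 libraries NEIL3 passed, while XRCC1 and MUTYH did not (limma adjusted p = 0.0498, 0.0798 and 0.0756), and under equal totals none of the 3 passed.

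NEIL1 (Entrez 79661), another glycosylase for oxidised bases, went the other way. With empty vector NEIL1 measured 4.33 and 4.004 FPKM in MM.1S and 0.738 and 1.41 FPKM in NCI-H929. NEIL1 measured 6.86 and 5.43 FPKM in the CCND2-high CTBP2 libraries and 2.17 and 2.97 FPKM in the FGFR3-high ones. In each line both CTBP2 libraries were above both empty vector libraries. Its log2 fold change was 0.63 (SE 0.36), which passed with marker-read lines and in 6 libraries but not as labelled (adjusted p = 0.36 as labelled, 0.0328 in 6 libraries and 0.0154 with marker-read lines, limma). OGG1, the glycosylase of oxidised guanine, and PARP1, the strand break sensor, did not pass in any of the 3 fits, at -0.32 and -0.26. PARP1 had the highest mean level per length of the 39 genes. It was at 95.6 to 286 FPKM with empty vector and 92.8 to 211 FPKM with CTBP2. Its sign turned to 0.04 under both quantile normalization and equal totals. By markers PARP1 was lower in both CTBP2 libraries of MM.1S, at a log2 difference of -0.47. In NCI-H929 by markers the vectors overlapped, at -0.04.

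**Figure D3:**
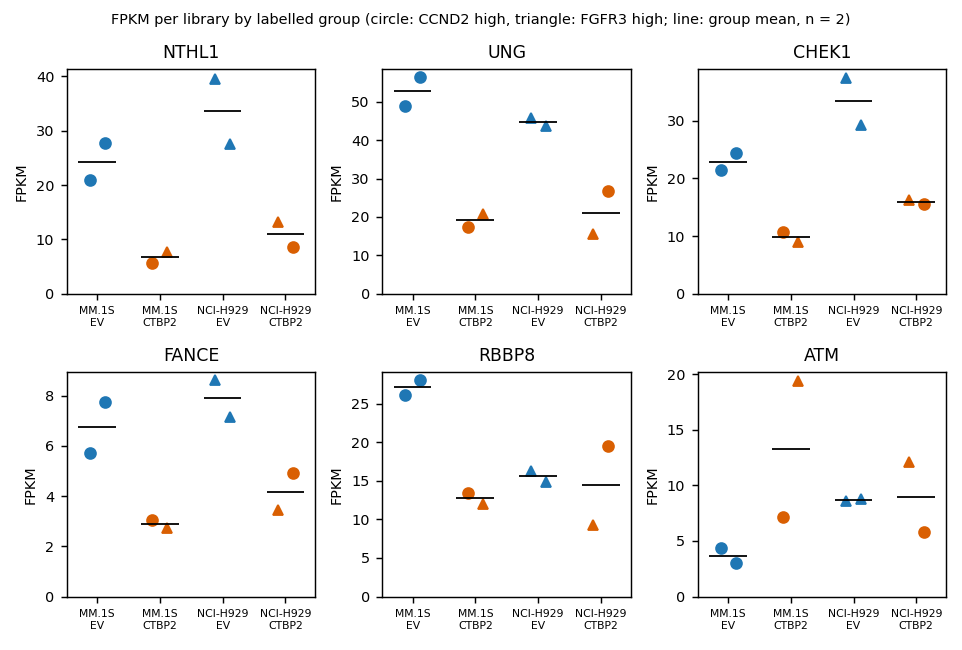
FPKM of 6 genes in each library, by labelled group on the horizontal axis (2 libraries per group, black line at their mean, empty vector blue, CTBP2 orange). Circles are CCND2-high and triangles FGFR3-high libraries. In NTHL1, UNG, CHEK1 and FANCE all orange points lie below all blue points, while in RBBP8 and ATM the vectors separate only among points of the same shape.

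Of the 3 mismatch repair genes, MSH6 and EXO1 were lower and PMS2 was not. MSH6 (Entrez 2956) takes part in mismatch recognition. With empty vector MSH6 measured 35.3 and 35.1 FPKM in MM.1S and 22.9 and 20.8 FPKM in NCI-H929. MSH6 measured 15.4 and 19.6 FPKM in the CCND2-high CTBP2 libraries and 11.9 and 11.9 FPKM in the FGFR3-high ones. The vectors did not overlap. Its log2 fold change of -0.90 (SE 0.24) missed the threshold as labelled and passed in the other fits (adjusted p = 0.084 as labelled, 0.00626 in 6 libraries and 0.00265 with marker-read lines, limma). EXO1 (Entrez 9156), the exonuclease that removes the mismatched strand and also extends resection, measured 20.0 and 19.02 FPKM in MM.1S and 11.7 and 8.03 FPKM in NCI-H929 with empty vector. With CTBP2 it measured 6.11 and 9.51 FPKM in the CCND2-high CTBP2 libraries and 5.37 and 2.46 FPKM in the FGFR3-high ones. The lower NCI-H929 empty vector value lay between the CCND2-high CTBP2 values, so the vectors separated only within a line. The log2 fold change was -1.22 (SE 0.42, adjusted p = 0.144 as labelled, 0.0112 in 6 libraries and 0.0055 with marker-read lines, limma). PMS2, which nicks the new strand, had a log2 fold change of 0.06 (SE 0.34), whose sign turned under quantile normalization, to -0.09. Related copies of PMS2, CHEK2 and FANCD2 exist in the genome, and how reads were shared among such copies is not given in the sources used here, so these values are uncertain.

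Of the 13 homologous recombination genes none passed as labelled, 7 fell in 6 libraries and 8 fell with marker-read lines, or 7 of 12 without BRCA2. The shares of all genes called lower in these fits were 1.81%, 13% and 16.7%. RBBP8 (Entrez 5932), the CtBP partner CtIP, was among the recombination genes that fell in 6 libraries and with marker-read lines. With empty vector RBBP8 measured 26.1 and 28.1 FPKM in MM.1S and 16.3 and 14.9 FPKM in NCI-H929. RBBP8 measured 13.4 and 19.6 FPKM in the CCND2-high CTBP2 libraries and 9.27 and 11.997 FPKM in the FGFR3-high ones. Within each line both CTBP2 libraries were below both empty vector libraries, with log2 differences of -0.71 in the CCND2-high and -0.52 in the FGFR3-high libraries. Across lines the values overlapped. The log2 fold change was -0.61 (SE 0.27) over 8 libraries and -0.83 in 6 (adjusted p = 0.238 as labelled, 0.00852 in 6 libraries and 0.0126 with marker-read lines, limma). Under equal totals RBBP8 did not pass with marker-read lines either, at -0.33.

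BRCA1 (Entrez 672) and BRCA2 (Entrez 675), which act in the resection and strand exchange steps of recombination, were lower within each line. With empty vector BRCA1 measured 12.3 and 12.9 FPKM in MM.1S and 7.01 and 7.80 FPKM in NCI-H929. BRCA1 measured 4.90 and 7.14 FPKM in the CCND2-high CTBP2 libraries and 4.56 and 2.21 FPKM in the FGFR3-high ones. With empty vector BRCA2 measured 2.03 and 1.11 FPKM in MM.1S and 1.45 and 1.16 FPKM in NCI-H929. BRCA2 measured 0.504 and 0.752 FPKM in the CCND2-high CTBP2 libraries and 0.807 and 0.457 FPKM in the FGFR3-high ones. BRCA2, the lowest of the 39 genes by mean level, reached 1 FPKM only in the 4 empty vector libraries, and all 4 CTBP2 values were below it. Since it was kept only through the empty vector group, its values are given as a description. BRCA1 had a fitted change of -0.98 (SE 0.34) on the log2 scale and fell with marker-read lines and in 6 libraries, but not as labelled (adjusted p = 0.144 as labelled, 0.0112 in 6 libraries and 0.00627 with marker-read lines, limma).

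Among genes that act during strand exchange or on the joint molecule, XRCC2, XRCC3, RAD54L and BLM were lower too. RAD51C did not pass in any of the 3 fits. XRCC2 (Entrez 7516) and XRCC3 (Entrez 7517) assist strand exchange. With empty vector XRCC2 measured 14.8 and 9.63 FPKM in MM.1S and 5.88 and 5.75 FPKM in NCI-H929. XRCC2 measured 4.54 and 4.90 FPKM in the CCND2-high CTBP2 libraries and 4.15 and 1.77 FPKM in the FGFR3-high ones. With empty vector XRCC3 measured 8.79 and 10.6 FPKM in MM.1S and 16.2 and 13.4 FPKM in NCI-H929. XRCC3 measured 4.47 and 6.54 FPKM in the CCND2-high CTBP2 libraries and 9.65 and 6.55 FPKM in the FGFR3-high ones. In XRCC2 the vectors were apart in all 8 libraries, whereas for XRCC3 the NCI-H929 CTBP2 replicate 1 value lay above the lower MM.1S empty vector value. Their log2 fold changes were -1.02 (SE 0.36) and -0.77 (SE 0.19), with limma adjusted p = 0.157 and 0.0682 as labelled and 0.00842 and 0.00843 with marker-read lines. RAD54L, a motor protein of strand exchange, and BLM, a helicase that dissolves joint molecules, had log2 fold changes of -1.14 and -1.08, and both fell with marker-read lines and in 6 libraries. RAD54L was at 4.78 to 14.8 FPKM with empty vector and 1.36 to 6.79 FPKM with CTBP2. BLM was at 3.77 to 9.66 and 0.939 to 4.38 FPKM. PALB2, which bridges BRCA1 and BRCA2, also fell in both of those fits, at -0.48, and missed under equal totals.

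The end-sensing complex of MRE11A, RAD50 and NBN did not pass in any of the 3 fits. With empty vector RAD50 measured 10.0 and 9.05 FPKM in MM.1S and 8.86 and 11.4 FPKM in NCI-H929. RAD50 measured 10.1 and 9.91 FPKM in the CCND2-high CTBP2 libraries and 8.25 and 12.4 FPKM in the FGFR3-high ones. All 8 values lay within the range of 8.25 to 12.4 FPKM, and the log2 fold change was 0.04 (SE 0.16), which was negative under the median-of-ratios rescale at -0.03. MRE11A and NBN had log2 fold changes of -0.28 (SE 0.30) and -0.29 (SE 0.39). With empty vector NBN measured 7.56 and 6.70 FPKM in MM.1S and 20.3 and 19.2 FPKM in NCI-H929. NBN measured 7.48 and 6.35 FPKM in the CCND2-high CTBP2 libraries and 12.2 and 14.4 FPKM in the FGFR3-high ones. The log2 difference of NBN was -0.54 in NCI-H929 and -0.04 in MM.1S by markers. MRE11A showed the reverse, at -0.04 in NCI-H929 and -0.53 in MM.1S by markers. RAD51C and BARD1, the latter the partner of BRCA1, also stayed short of the threshold, at -0.53 and -0.37.

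Of 9 Fanconi genes FANCE fell as labelled, 5 fell in 6 libraries and 6 fell with marker-read lines. Of all genes tested, 1.81%, 13% and 16.7% were called lower in these fits. FANCE (Entrez 2178) links the ubiquitin ligase core to its substrate. With empty vector FANCE measured 5.73 and 7.74 FPKM in MM.1S and 8.64 and 7.16 FPKM in NCI-H929. FANCE measured 3.06 and 4.91 FPKM in the CCND2-high CTBP2 libraries and 3.45 and 2.74 FPKM in the FGFR3-high ones. The vectors were apart in all 8 libraries, at 7.32 ± 1.22 FPKM with empty vector (SD, n = 4) and 3.54 ± 0.960 FPKM with CTBP2 (SD, n = 4). Its log2 fold change came to -0.88 (SE 0.17, limma adjusted p = 0.0463), which missed the threshold under equal totals as labelled. FANCA, FANCG and FANCC are further core subunits. FANCA was at 10.0 to 12.1 FPKM with empty vector and 4.58 to 9.17 FPKM with CTBP2, without overlap. FANCC was likewise apart, at 2.80 to 3.91 and 2.06 to 2.65 FPKM. With empty vector FANCG measured 25.5 and 33.4 FPKM in MM.1S and 17.04 and 13.8 FPKM in NCI-H929. FANCG measured 11.1 and 18.2 FPKM in the CCND2-high CTBP2 libraries and 8.14 and 4.31 FPKM in the FGFR3-high ones. The log2 fold changes of FANCA, FANCC and FANCG were -0.64 (SE 0.21), -0.42 (SE 0.16) and -1.11 (SE 0.45). All 3 fell with marker-read lines and none passed as labelled (limma adjusted p = 0.136, 0.179 and 0.2). In 6 libraries FANCA and FANCG fell and FANCC missed (limma adjusted p = 0.0208, 0.00868 and 0.0609), and under equal totals FANCA and FANCC missed with marker-read lines.

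FANCD2 (Entrez 2177) and FANCI (Entrez 55215) form the clamp that the core ligase marks with ubiquitin. With empty vector FANCD2 measured 14.0 and 11.99 FPKM in MM.1S and 7.72 and 6.97 FPKM in NCI-H929. FANCD2 measured 5.87 and 7.15 FPKM in the CCND2-high CTBP2 libraries and 5.77 and 4.54 FPKM in the FGFR3-high ones. With empty vector FANCI measured 48.5 and 42.7 FPKM in MM.1S and 20.7 and 16.9 FPKM in NCI-H929. FANCI measured 19.9 and 26.1 FPKM in the CCND2-high CTBP2 libraries and 13.8 and 8.83 FPKM in the FGFR3-high ones. Both were lower with CTBP2 within each line and overlapped across lines. Their log2 fold changes of -0.67 (SE 0.24) and -0.84 (SE 0.43) passed with marker-read lines and in 6 libraries (limma adjusted p = 0.00922 and 0.00739, and 0.038 and 0.0256). FANCD2 missed with marker-read lines under equal totals. The helicase gene BRIP1, the core subunit FANCF and the ligase FANCL did not pass in any of the 3 fits, at -0.38, -0.15 and 0.10. FANCF turned to 0.12 under equal totals and FANCL to -0.05 under quantile normalization.

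Among the 5 checkpoint genes the ATR branch and ATM differed in direction. CHEK1 (Entrez 1111), the kinase activated by ATR, fell in all 3 fits. With empty vector CHEK1 measured 21.4 and 24.4 FPKM in MM.1S and 37.5 and 29.3 FPKM in NCI-H929. CHEK1 measured 10.7 and 15.7 FPKM in the CCND2-high CTBP2 libraries and 16.2 and 8.94 FPKM in the FGFR3-high ones. The vectors were apart, at 28.2 ± 7.04 FPKM with empty vector (SD, n = 4) and 12.9 ± 3.60 FPKM with CTBP2 (SD, n = 4). CHEK1's fitted change on the log2 scale was -1.08 (SE 0.14, limma adjusted p = 0.0326). With empty vector ATR measured 6.87 and 5.76 FPKM in MM.1S and 6.90 and 7.96 FPKM in NCI-H929. ATR measured 4.99 and 5.26 FPKM in the CCND2-high CTBP2 libraries and 4.05 and 5.33 FPKM in the FGFR3-high ones. ATR (Entrez 545) was apart as well, at a smaller log2 fold change of -0.41 (SE 0.16, adjusted p = 0.182 as labelled, 0.0545 in 6 libraries and 0.0371 with marker-read lines, limma). TOPBP1, which switches ATR on, and CHEK2, the kinase downstream of ATM, had log2 fold changes of -0.59 (SE 0.24) and -0.71 (SE 0.35), and both fell with marker-read lines (limma adjusted p = 0.00854 and 0.00643) and in 6 libraries, but not as labelled (limma adjusted p = 0.209 and 0.286). Under equal totals ATR and TOPBP1 missed with marker-read lines.

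ATM (Entrez 472) had the highest fold change of the 39 genes. With empty vector ATM measured 4.39 and 2.99 FPKM in MM.1S and 8.62 and 8.74 FPKM in NCI-H929. ATM measured 7.15 and 5.77 FPKM in the CCND2-high CTBP2 libraries and 12.1 and 19.3 FPKM in the FGFR3-high ones. Within each line both CTBP2 libraries were above both empty vector libraries, and across lines the values overlapped. The log2 fold change was 0.72 (SE 0.44), and it passed with marker-read lines and in 6 libraries only (adjusted p = 0.389 as labelled, 0.0342 in 6 libraries and 0.012 with marker-read lines, limma). With marker-read lines ATM and NEIL1 were called higher under each of the 3 other scalings as well.

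Both lines showed the decrease when libraries were grouped by marker genes. In MM.1S by markers, 31 of the 39 genes had both CTBP2 libraries below both empty vector libraries and 2 had both above, against 31.3% and 31.6% of all genes tested. In NCI-H929 by markers it was 30 below and 4 above, against 31% and 37%, and 27 genes were below in both lines, against 19.9%. The median difference was -0.63 in MM.1S and -0.56 in NCI-H929 on the log2 scale. Without BRCA2 the counts below were 30, 29 and 26 of 38. These are descriptions of 2 against 2 libraries.

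The difference of the CTBP2 effect between lines, tested as an interaction with limma, passed for none of the 39 genes in any of the 3 fits (0.0159% of all genes tested were called as labelled, 0.35% in 6 libraries and 1.26% with marker-read lines). At an unadjusted p under 0.05 there were 15 genes as labelled, 7 in 6 libraries and 1 with marker-read lines, against 7.25%, 13.0% and 15.4% of all genes tested. In the 6 libraries each line has a single CTBP2 library, so the spread comes from the empty vector pairs alone and the lone library is assumed to vary like them. By smallest p as labelled the leading genes were XRCC1, FANCD2, FANCL and BRIP1. As labelled their NCI-H929 minus MM.1S differences were 0.95 (SE 0.26), 1.01 (SE 0.31), 1.31 (SE 0.43) and 1.33 (SE 0.45), each with a limma adjusted p of 0.497. With marker-read lines the same differences were 0.27, 0.46, 0.62 and 0.29. Each labelled CTBP2 group mixes CCND2-high and FGFR3-high libraries, so every labelled difference also carries the reverse of the line difference with empty vector. XRCC1, FANCD2, FANCL and BRIP1 were all lower in NCI-H929 with empty vector. The median difference of the 39 genes was 0.83 as labelled and 0.07 with marker-read lines. In FANCL the CTBP2 libraries were both below the empty vector libraries in MM.1S and both above them in NCI-H929 by markers. With empty vector FANCL measured 6.71 and 6.53 FPKM in MM.1S and 2.22 and 2.33 FPKM in NCI-H929. FANCL measured 5.18 and 6.04 FPKM in the CCND2-high CTBP2 libraries and 3.36 and 3.36 FPKM in the FGFR3-high ones. CHEK1 differed the other way, at -0.77 in MM.1S and -1.39 in NCI-H929 by markers, with an interaction of -0.61 (SE 0.40, limma adjusted p = 0.527). A p above the threshold does not show that the lines respond alike.

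**Figure D4:**
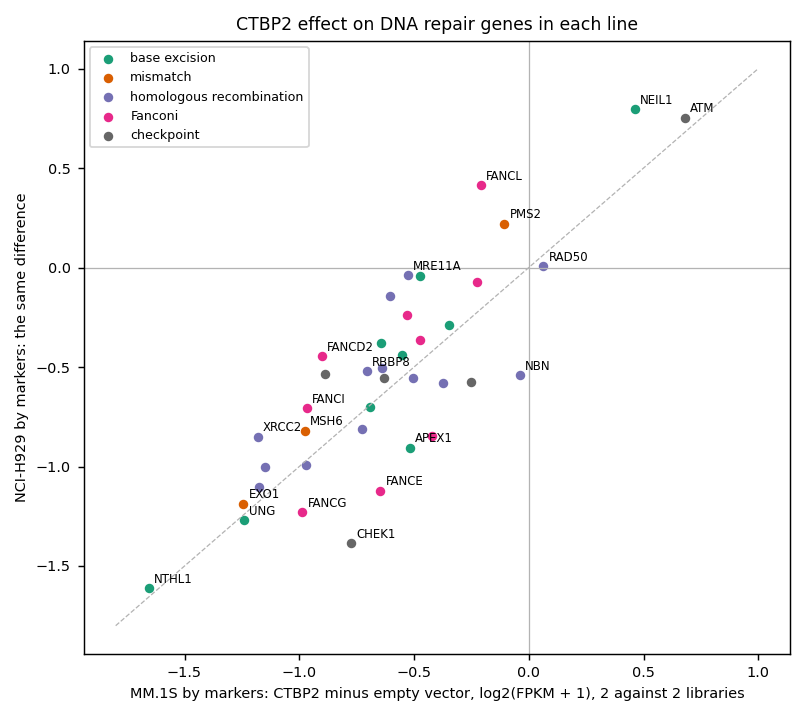
Difference between CTBP2 and empty vector libraries in log2(FPKM + 1) for the 39 genes in MM.1S (horizontal) and NCI-H929 (vertical), with lines read from CCND2 and FGFR3 and 2 libraries per vector and line, coloured by role. Most genes lie at the lower left, NEIL1 and ATM in the upper right with RAD50 near 0, and FANCL and PMS2 in the upper left. The dashed line marks equal differences.

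With empty vector alone the lines did not overlap in most genes, and the repair genes were no exception. Of the 39, 24 had both NCI-H929 libraries below both MM.1S libraries and 8 had both above, against 44.8% and 34.4% of all genes tested. In the fit of all groups as labelled none passed, with 0.0397% of all genes called. At an unadjusted p under 0.05 there were 16 of the 39, against 24.4% of all genes tested. In 6 libraries, where the same 4 empty vector libraries are compared and they alone give the spread, 21 were lower and 6 higher in NCI-H929, against 30.9% and 23.7% of all genes tested (54.5% in either direction). With marker-read lines it was 18 lower and 4 higher, against 28.7% and 22.1% (50.8% in either direction). The leading genes by p as labelled were FANCL, NBN, BARD1 and FANCD2. FANCL averaged 6.62 FPKM in MM.1S and 2.27 in NCI-H929, BARD1 8.31 and 3.60, and FANCD2 13.0 and 7.34. NBN was 2.77-fold higher in NCI-H929, at a log2 difference of 1.35 (limma adjusted p = 0.00047 in 6 libraries and 0.204 as labelled). ATM was also higher in NCI-H929, at a log2 difference of 1.06, while its target kinase CHEK2 was lower at -1.13 and BRCA1 at -0.69 (limma adjusted p = 0.00327, 0.00108 and 0.00781 in 6 libraries).

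Repair genes outside the 39 were examined in 8 lists of 119 genes, of which 118 were tested. As labelled 4 fell and none rose, in 6 libraries 37 fell and 2 rose, and with marker-read lines 45 fell and 4 rose, at a median log2 fold change of -0.30. Of all genes tested, 1.81% were called lower and 1.53% higher as labelled, and 13% and 11.5% in 6 libraries. With marker-read lines 16.7% were called lower and 17.4% higher. In that fit 6 of 13 other base excision genes fell, 2 of 6 other mismatch, 13 of 27 other recombination, 6 of 13 other Fanconi and 9 of 16 other checkpoint genes, and 1 of these rose. FANCB, of the other Fanconi genes, reached 1 FPKM only with empty vector, at 0.245 to 0.639 FPKM with CTBP2. It was kept through the empty vector group alone, and these counts were not repeated without it. FEN1, which trims flaps in repair and replication, had a log2 fold change of -1.19 and fell with marker-read lines and in 6 libraries. The fork protection gene TIPIN (-1.20), the histone variant H2AFX (-1.05) and the ATR partner ATRIP (-0.79) also fell as labelled (limma adjusted p = 0.0326, 0.0405 and 0.0457).

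End joining, nucleotide excision and translesion genes were called lower at shares nearer to that of all genes. With marker-read lines 3 of 12 end joining genes fell and 1 rose, 4 of 20 nucleotide excision genes fell and 2 rose, and 2 of 11 translesion genes fell and none rose, against 16.7% and 17.4% of all genes, at median log2 fold changes of -0.22, -0.04 and 0.009. XRCC5, a subunit of the Ku end-binding complex, fell as labelled (-0.75, limma adjusted p = 0.0357), while LIG4, the end joining ligase, rose with marker-read lines only (0.47, limma adjusted p = 0.0191). ERCC5, a nuclease of nucleotide excision, rose with marker-read lines and in 6 libraries (0.55, limma adjusted p = 0.0105 and 0.0411), and RAD18, a ubiquitin ligase that opens translesion synthesis, fell in the same fits at -0.91. Whether the shares differ between lists was not tested.

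Genes of replication and the cell cycle were lower in the same CTBP2 libraries. Of 14 such genes, among them MCM subunits, CDC6, CDT1, E2F1 and MKI67, 1 fell as labelled, 13 in 6 libraries and 14 with marker-read lines, at a median log2 fold change of -1.10. The shares of all genes called lower were 1.81% as labelled, 13% in 6 libraries and 16.7% with marker-read lines. CDC6, CDT1 and E2F1 had log2 fold changes of -1.45, -1.43 and -1.23. The part of a change in cycling cells in the lower repair transcripts was not tested.

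**Figure D5:**
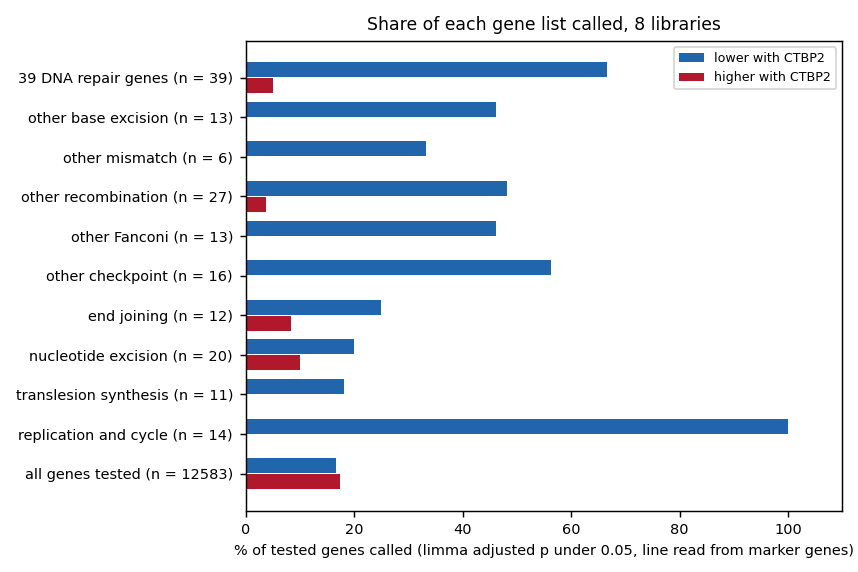
Share of each gene list called lower (blue) or higher (red) with CTBP2, in percent of tested genes (limma adjusted p under 0.05, 8 libraries, line read from marker genes), beside the share of all 12583 genes. The 39 repair genes had 26 called lower and 2 higher, and the replication and cycle list had 14 of 14 called lower.

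RefSeq promoter windows were at hand for 37 of the 39 genes. The E-box CACGTG was found in 4 of the 37 (APEX1, BRCA2, NTHL1 and UNG), or 10.8%, and in 7.73% of all 27305 genes with a window of the same length. CCAAT was found in 21, or 56.8%, against 37.0% of all genes. One of the 4 E2F spellings was found in 4 (FANCA, FANCC, PMS2 and UNG), or 10.8%, against 3.40%, and TTTGAA in 7, or 18.9%, against 16.1%. A gene with several starts counted once if any window held the motif, so more windows gave more chances of a match. The comparison took all genes with a window, expressed or not. Neither the number of windows nor expression was matched, so these shares cannot show a trait of the repair genes. Both genes with an E-box that fell as labelled, NTHL1 and UNG, are printed above with APEX1. NEIL1 and ATM, which rose with marker-read lines, hold CCAAT as do genes that fell.

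Several of the 39 genes share exonic bases with a neighbour in GENCODE 29, and whether reads were counted by strand is not given in the sources used here. More than 5% of exonic bases were shared in 12 genes. NTHL1 shared 14.8% with TSC2, MSH6 21.0% with FBXO11, FANCA 22.4% with ZNF276, XRCC3 45.3% with KLC1 and FANCL 26.7% with VRK2 and AC007250.1, while RAD50 shared 90.6% with AC116366.3 and TH2LCRR. NEIL1, called higher with marker-read lines, shared 19.6% with MAN2C1 and AC068338.3. UNG, CHEK1 and FANCE shared none, and ATM and RBBP8 shared 0.623% and 2.44%.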

How the data were processed

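RNA was sequenced from 8 libraries of 2 myeloma lines, 2 per line and vector. The authors deposited 1 table of FPKM values per gene and library. Per the submitters' processing notes, the aligner STAR (version 2.6.0b-1), the counter HTSeq (version 0.9.1), DESeq2 (version 2.11.40.2), Trimmomatic (version 0.36.5) and FastQC (version 0.11.7) were used with the build GRCh37. The tool that made the FPKM values is not given in the sources used here.

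The 12583 genes that reached 1 FPKM in 2 or more libraries were kept. Values were tested as log2(FPKM + 1), a scale that understates the change of low genes, with limma 3.58.1 in R 4.3.3 (empirical Bayes with a variance trend), with line and vector as terms and their product for the difference between lines. P-values were adjusted over all genes kept. Fold changes are on that scale. The labels call the libraries of a group biological duplicates and say no more of their origin, so p-values measure the spread between these libraries, which may be technical. The fit was tested on simulated data.

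Depth was inferred from the spacing of low FPKM values: 51.1% to 59.9% of them came out whole within 0.1 fragment, against 20.0% by chance, so no count test was run. Alternatives were 3 other scalings, another pseudocount (0.1), no filter and a filter of 5 FPKM, no variance trend, a replicate block, each library left out, 6 libraries and marker-read lines. Marker-read lines with each other scaling were chosen after seeing the data.

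The 39 genes and the other gene lists were chosen with earlier results of these data known. Genes were named by these rules: those called as labelled, RBBP8, up to 4 per role by smallest p as labelled, the highest and lowest of each role, up to 4 for the baseline and the difference between lines, and up to 3 of each other list. Some genes that these rules name are not reported here. Further genes were described after their values were seen. Promoter windows come from RefSeq on GRCh38.p14, and exon overlaps from GENCODE 29, neither being the build of the table.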

Additional observations from a re-analysis of the deposited data

Results flagged for a closer look

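FANCL differed in direction between the lines. The libraries with CTBP2 were below those with empty vector in MM.1S and above them in NCI-H929. The NCI-H929 minus MM.1S difference of the CTBP2 effect was 1.31 on the log2 scale as labelled (limma adjusted p = 0.497) and 0.62 with marker-read lines (limma adjusted p = 0.189), so neither passed the threshold. Each labelled CTBP2 group mixes both lines by markers, so the value of 1.31 also carries the lower FANCL level of NCI-H929 with empty vector. FANCL shares exonic bases with VRK2, and the part of reads from that gene was not tested.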

How the results depend on the processing

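The count of DNA repair genes called for CTBP2 was 4 as labelled, 23 without both libraries labelled CTBP2 replicate 2 and 28 with marker-read lines. It ranged from 0 to 7 when single libraries were left out as labelled, and with marker-read lines from 19 to 29 (25 without either MM.1S EV replicate, 26 with MM.1S CTBP2 replicate 2 dropped, 21 without NCI-H929 EV replicate 1 and 24 without NCI-H929 EV replicate 2). The share of all genes called ranged from 0.0079% to 5.75% as labelled and from 19.5% to 35.3% with marker-read lines. With all 8 libraries, 3.34% of all genes were called as labelled and 34.1% with marker-read lines. With the replicate number within the labelled line as a block, the count of DNA repair genes was 0, and 1 gene of all was called. By markers both replicate 2 blocks hold libraries of different lines, so this count cannot show what pairing does. Same-numbered libraries deviated together with correlations of 0.012 in MM.1S and 0.109 in NCI-H929. With 2 libraries per group, and both labelled CTBP2 replicate 2 against their line labels, these values cannot show whether the numbers pair the libraries. For the baseline counts of repair genes that follow, 0.0397% of all genes were called as labelled and 50.8% with marker-read lines. Shares of all genes in 6 libraries are given in the Results. The baseline count was 0 as labelled, 27 in 6 libraries and 22 with marker-read lines, and the count for the difference between lines was 0 under every alternative run. PMS2, at 0.06, turned negative under quantile normalization (-0.092), without MM.1S CTBP2 replicate 1 (-0.01), NCI-H929 EV replicate 1 (-0.10), NCI-H929 EV replicate 2 (-0.01) or the library labelled NCI-H929 CTBP2 replicate 2 (-0.25), and with marker-read lines when the library labelled MM.1S CTBP2 replicate 2 (-0.018) or NCI-H929 EV replicate 1 (-0.019) was left out. As labelled, leaving out single libraries gave PMS2 values from -0.25 to 0.34. The cause was not tested. Over the named genes and alternatives of the CTBP2 effect, 350 results stayed on their side of the threshold, 127 moved past it, 33 lost it and 7 changed sign. Depth limits the low genes most, BRCA2 among them.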
